A study of Mus musculus with 8 samples.

Results

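The nuclear receptors through which the liver senses lipids, bile acids, foreign compounds and thyroid hormone were examined as 10 genes listed by symbol: Nr1h2, Nr1h3, Nr1h4, Nr0b2, Nr1i2, Nr1i3, Ppara, Ppard, Rxra and Thrb. All 10 were found among the 16796 genes that the deposited tables list, and the list sets no threshold on measured values. Whole-liver RNA was sequenced from 8 mice, 4 labelled E4bp4-LKO (liver-specific knockout of E4bp4, mice 143, 144, 145 and 179) and 4 labelled WT (wild type, mice 164, 165, 166 and 167). Every mouse of both groups received a diet that induces non-alcoholic steatohepatitis (NASH) for 20 weeks from 2 months of age, so no liver on ordinary chow enters the comparison. The study's title names hepatocyte E4BP4 and liver fibrosis as its subject. The promoter or Cre line behind the knockout, the sex, strain and litter of the mice and the hour of collection could not be taken from the labels.

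Nuclear receptors are transcription factors that bind a small lipophilic ligand and, with it, exchange repressor for activator proteins on their target genes. Most of those described here bind DNA as a pair with the retinoid X receptor alpha, encoded by Rxra. In liver they control bile acid synthesis, cholesterol export, fat oxidation, lipid synthesis and drug clearance. E4BP4, encoded by Nfil3, is a basic leucine zipper repressor of the circadian output that binds D-box DNA elements.

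Total expected counts were 23805540 to 32290265 per liver, and 13244 genes had enough counts to be tested. Nfil3 had 3.33, 6.22, 6.14 and 3.35 TMM-normalized CPM (counts scaled by the effective library size) in E4bp4-LKO livers 143, 144, 145 and 179, against 11.4, 8.79, 12.1 and 16.5 CPM in WT livers 164, 165, 166 and 167. It fell in E4bp4-LKO by 1.35 on the log2 scale (SE 0.25, adjusted p = 0.0121, edgeR), and the exact two-sided permutation test gave p = 0.0286, the smallest that 70 arrangements allow. Which part of Nfil3 was deleted is not given, so the remaining reads say nothing of the protein. Across all genes, 1436 changed at an adjusted p under 0.05, which is 10.8% of those tested, with 578 higher (4.36%) and 858 lower (6.48%) in E4bp4-LKO. The lower share of the changed genes was 59.7%, and 85.1% of 1951 changed genes when libraries were scaled by their totals. WT 164 and WT 165 stood apart on the first principal component (52.7% of the variance), on which the E4bp4-LKO livers scored -31.2 to -19.2, WT 166 and WT 167 scored 11.1 and 10.4, and WT 164 and WT 165 scored 49.3 and 30.1. Without both of these, 387 genes changed, in a fit that left WT 166 and WT 167 as the only WT livers. Leaving out 1 mouse, the count was 506 without E4bp4-LKO 144, 735 without 145 and 757 without 179, and 933 without WT 164 and 633 without WT 165. Hepatocyte markers (9 of 10 listed, none at 0) were abundant in every liver, summing to 83072 to 102250 CPM in E4bp4-LKO and 65019 to 83558 CPM in WT. WT 164 had the lowest hepatocyte sum. Stellate and fibroblast markers (12 of 12 listed, none at 0) summed to 558 to 776 CPM in E4bp4-LKO and 895 to 1655 CPM in WT, and macrophage markers (12 of 12, none at 0) to 533 to 702 CPM in E4bp4-LKO and 707 to 1008 CPM in WT. Cholangiocyte markers (7 of 7, none at 0) summed to 78.2 to 105 CPM in E4bp4-LKO and 192 to 475 CPM in WT. A sum follows its most abundant markers. Singly, 7 of 12 stellate and fibroblast markers, 6 of 12 macrophage markers and 1 of 6 tested cholangiocyte markers passed as lower. None of these passed as higher, although for 1 macrophage marker every E4bp4-LKO liver lay above every WT liver. The sums of endothelial (10 of 10 listed), lymphocyte (8 of 8) and neutrophil and monocyte markers (6 of 6) overlapped between the groups. In the stellate, macrophage and cholangiocyte lists WT 164 was the highest of the 8 livers and WT 165 the next, and their part in the receptor values was not tested.

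None of the 10 receptors passed the test in either direction. At an unadjusted p under 0.05 there were 4 (Nr1h4, Nr1i3, Rxra and Thrb), all with a positive log2 fold change, where 28.3% of all genes tested stood under that p. DESeq2 called 3 higher, Nr1h4 (adjusted p = 0.0237), Rxra (0.0261) and Nr1i3 (0.0428), and voom with sample weights called Nr1h4 alone (0.0470). On log2(FPKM + 1), limma called none. Of all genes with an adjusted p, DESeq2 called 6.86% higher, voom 4.98% and limma on log2(FPKM + 1) 2.42%. The log2 fold change was above 0 for 7 receptors and below 0 for 3, with a median of 0.21 against 0.01 over all genes tested. The levels of E4bp4-LKO and WT livers did not overlap for 2 receptors, Nr1h4 and Nr1i3, where 18.5% of all genes tested were without overlap. In TMM-normalized CPM, WT 164 had the lowest level of all 8 livers for 6 of the 10. In FPKM it stayed the lowest for Nr1h4, Nr1i3, Ppara and Rxra of these. It was not the lowest in FPKM for Nr1h3 (49.1, against 48.5 in E4bp4-LKO 145) or Thrb (5.86, against 5.48 in WT 166). In bulk tissue, fewer cells of a type and less RNA per cell cannot be told apart. The labels do not say whether mice were littermates. The p-values set the difference between groups against the spread among mice within groups, as estimated from these 8 mice.

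**Figure D1:**
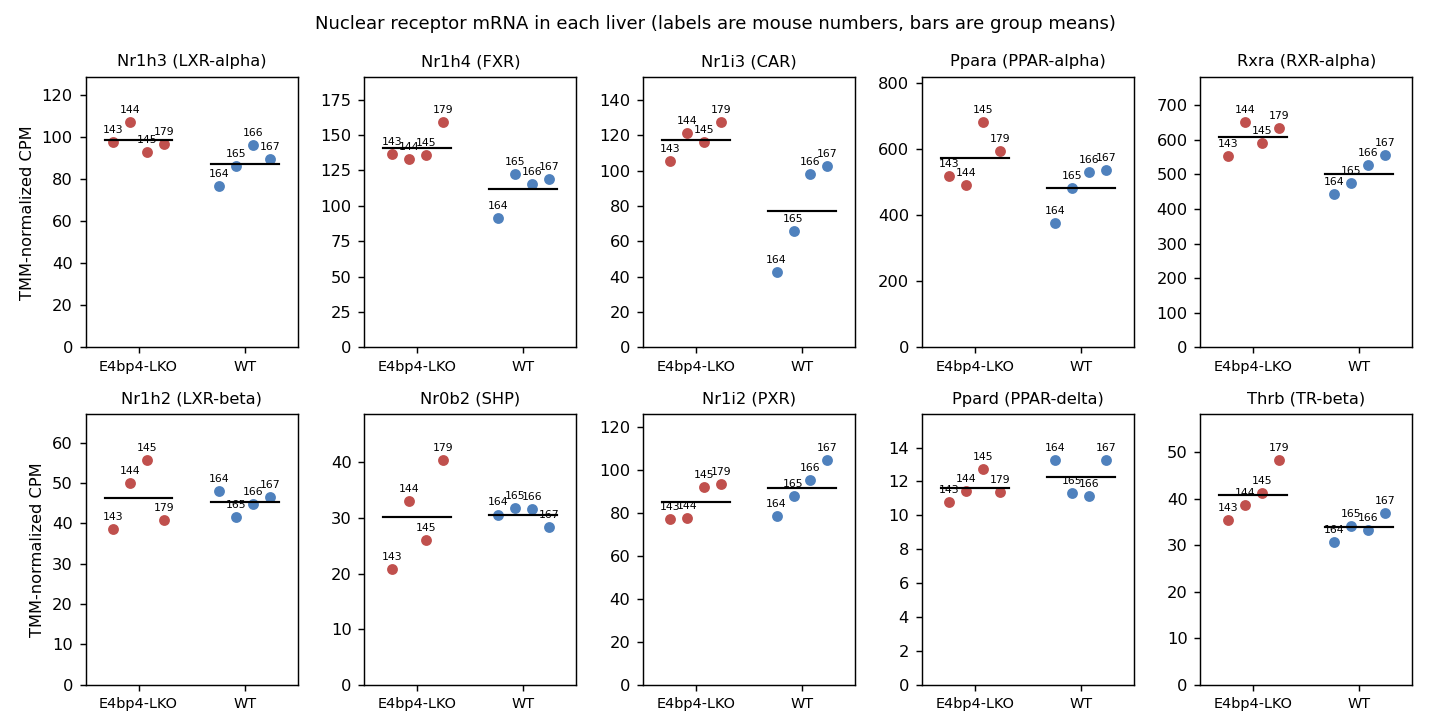
TMM-normalized CPM of each receptor (y axis, linear and starting at 0) in the 4 E4bp4-LKO livers (left, red) and the 4 WT livers (right, blue); points are livers with their mouse numbers, bars are group means. Nr1h4 and Nr1i3 are without overlap, and WT 164 is the lowest liver of its group in 7 of the 10 panels.

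**Figure D2:**
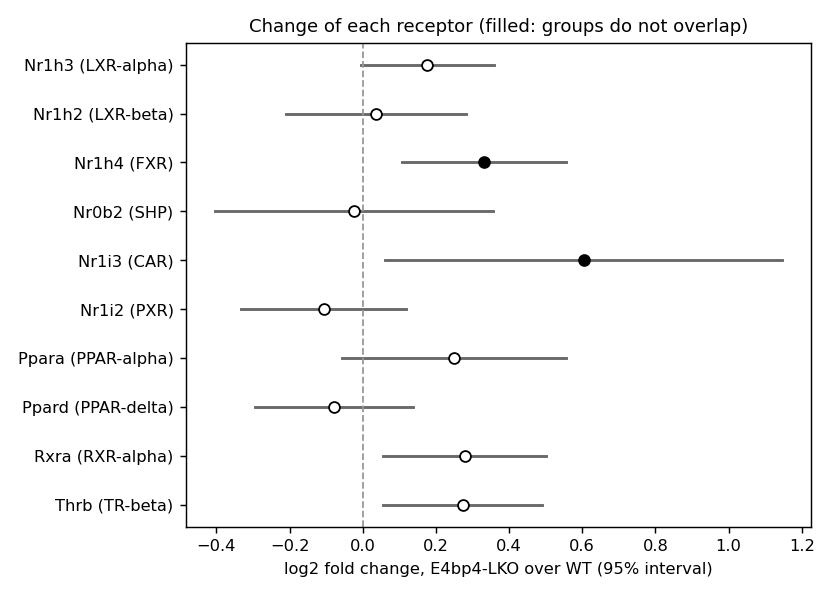
Log2 fold change of each receptor, E4bp4-LKO over WT (x axis), with its 95% interval from edgeR; filled points are receptors whose groups did not overlap. The intervals of Nr1h4, Nr1i3, Rxra and Thrb lie above 0, and no receptor passed the threshold after adjustment over all genes tested.

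The direction of small differences depended on the scaling. Scaled by library totals, all genes tested had a median of -0.15 on the log2 scale, and on log2(FPKM + 1) it was -0.11. TMM factors were 0.94 to 0.96 in E4bp4-LKO livers, and 1.16, 1.09, 1.00 and 0.98 in WT 164, 165, 166 and 167. With library totals the log2 fold change was 0.47 for Nr1i3, 0.18 for Nr1h4, 0.13 for Rxra, 0.12 for Thrb, 0.10 for Ppara and 0.03 for Nr1h3. It was -0.12 for Nr1h2, -0.19 for Nr0b2, -0.24 for Ppard and -0.26 for Nr1i2, and none passed. Less the median of all genes, these values were 0.62 for Nr1i3, 0.33 for Nr1h4, 0.28 for Rxra, 0.27 for Thrb, 0.25 for Ppara, 0.17 for Nr1h3, 0.02 for Nr1h2, -0.04 for Nr0b2, -0.09 for Ppard and -0.11 for Nr1i2.

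By FPKM, which is per transcript length, Rxra was the most abundant of the 10 in both groups, at 111 ± 6.87 FPKM in E4bp4-LKO and 101 ± 2.83 FPKM in WT (SD, n = 4 each). Ppard was the least abundant, at 3.36 ± 0.23 FPKM in E4bp4-LKO and 3.97 ± 0.55 FPKM in WT, and Thrb was next above it. In E4bp4-LKO livers the order below Rxra was Nr1i3, Ppara, Nr1h4, Nr1h3, Nr1i2, Nr0b2, Nr1h2, Thrb and Ppard. Of these neighbours, Nr1i3 and Ppara, Ppara and Nr1h4, Nr1i2 and Nr0b2, and Nr0b2 and Nr1h2 had overlapping ranges. In WT livers the order was Rxra, Ppara, Nr1i3, Nr1h4, Nr1h3, Nr1i2, Nr0b2, Nr1h2, Thrb and Ppard. There the ranges of Ppara and Nr1i3, Nr1i3 and Nr1h4, Nr1h4 and Nr1h3, and Nr0b2 and Nr1h2 overlapped. Nr1i3 had the widest relative spread in WT, 57.2 ± 17.4 FPKM, against 79.5 ± 5.57 FPKM in E4bp4-LKO (SD, n = 4 each).

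Promoter windows of all 10 receptors were read from RefSeq (GRCm38.p6), from 250 bases before to 50 bases after each start, 13 windows in all. The D-box TTANGTAA, searched on both strands, was in none of the 13 and in 2.32% of 32851 windows of this length. The half-site AGGTCA that many nuclear receptors bind, on either strand, was in 3 of the 13 and in 16.3% of all windows. A match or its absence describes these letters alone. The windows of the 2 receptors without overlap between groups, and the Rxra window with a pair of half-sites, are shown 5′ to 3′ on the gene's strand, with half-sites in capitals. The Nr1h4 window is chr10:89506609-89506908 (minus strand), with 1 half-site at position -214 from the start. The Nr1i3 window is chr1:171213720-171214019 (plus strand), with none. The Rxra window is that of its second listed start, chr2:27709042-27709341 (plus strand), with half-sites at -87 and -48.
Nr1h4: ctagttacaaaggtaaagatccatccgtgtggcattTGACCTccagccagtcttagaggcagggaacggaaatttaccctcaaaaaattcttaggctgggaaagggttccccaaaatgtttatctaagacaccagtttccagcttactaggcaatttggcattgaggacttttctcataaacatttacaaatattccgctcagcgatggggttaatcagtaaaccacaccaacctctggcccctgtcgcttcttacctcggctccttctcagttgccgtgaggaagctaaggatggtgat
Nr1i3: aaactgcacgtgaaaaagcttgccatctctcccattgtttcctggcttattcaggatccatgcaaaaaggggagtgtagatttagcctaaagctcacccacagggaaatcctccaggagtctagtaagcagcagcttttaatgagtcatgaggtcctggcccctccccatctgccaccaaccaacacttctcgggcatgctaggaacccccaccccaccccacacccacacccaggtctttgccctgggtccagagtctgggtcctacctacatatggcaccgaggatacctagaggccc
Rxra: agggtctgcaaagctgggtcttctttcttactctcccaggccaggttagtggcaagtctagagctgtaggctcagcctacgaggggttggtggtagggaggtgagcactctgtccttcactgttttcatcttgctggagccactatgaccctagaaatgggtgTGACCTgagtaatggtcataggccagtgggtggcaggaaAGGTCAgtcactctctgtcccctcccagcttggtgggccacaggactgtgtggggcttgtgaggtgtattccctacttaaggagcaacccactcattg

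The oxysterol receptors LXRα (Nr1h3) and LXRβ (Nr1h2) induce cholesterol export and lipid synthesis. Nr1h3 had 97.6, 107, 93.0 and 96.6 CPM in E4bp4-LKO livers 143, 144, 145 and 179, against 76.8, 86.1, 96.1 and 89.8 CPM in WT livers 164 to 167. WT 166 lay above E4bp4-LKO 145, so the groups overlapped. The log2 fold change was 0.18 (SE 0.08, 95% interval -0.0045 to 0.36, adjusted p = 0.186). Nr1h2 had 38.6, 49.96, 55.8 and 40.9 CPM in E4bp4-LKO, against 48.0, 41.5, 44.8 and 46.5 CPM in WT. The E4bp4-LKO livers lay on both sides of all WT livers, and the log2 fold change was 0.04 (SE 0.11, interval -0.21 to 0.28, adjusted p = 0.870), below 0 with library totals and on FPKM. The ratio of Nr1h3 to Nr1h2 in FPKM overlapped, at 1.86 to 2.82 in E4bp4-LKO and 1.78 to 2.38 in WT.

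FXR (Nr1h4) is the bile acid receptor, which limits bile acid synthesis and drives bile salt export. Nr1h4 had 136, 133, 136 and 159 CPM in E4bp4-LKO livers 143, 144, 145 and 179, against 91.4, 123, 115 and 119 CPM in WT livers 164 to 167. Every E4bp4-LKO liver was above every WT liver. The fold change was 1.26 (log2 0.33, SE 0.10, interval 0.11 to 0.56, adjusted p = 0.0602 by edgeR). Leaving out each mouse gave log2 fold changes of 0.25 to 0.38 and adjusted p of 0.0606 to 0.145. Without WT 164 and WT 165 the log2 fold change was 0.27 (adjusted p = 0.137). In FPKM the groups overlapped, at 60.5 to 72.4 in E4bp4-LKO and 51.1 to 64.3 in WT.

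SHP (Nr0b2) lacks a DNA-binding domain and acts as a corepressor that FXR induces. Nr0b2 had 20.8, 33.1, 26.1 and 40.5 CPM in E4bp4-LKO, against 30.6, 31.7, 31.7 and 28.4 CPM in WT. The WT livers lay close together and the E4bp4-LKO livers ranged on both sides of them (SD 8.56 CPM in E4bp4-LKO and 1.58 CPM in WT, n = 4 each). The log2 fold change was -0.02 (SE 0.17, interval -0.41 to 0.36, adjusted p = 0.945) and 0.12 without E4bp4-LKO 143. The ratio of Nr0b2 to Nr1h4 was 0.282 to 0.471 in E4bp4-LKO and 0.440 to 0.622 in WT, overlapping.

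CAR (Nr1i3) and PXR (Nr1i2) are the xenobiotic receptors that induce cytochrome P450 enzymes, conjugating enzymes and transporters. Nr1i3 had 105, 121, 116 and 127 CPM in E4bp4-LKO livers 143, 144, 145 and 179, against 42.8, 66.0, 98.0 and 103 CPM in WT livers 164 to 167. The groups did not overlap, although WT 167 lay close below E4bp4-LKO 143, and WT 164 and 165 were far below the other WT livers. The fold change was 1.52 (log2 0.60, SE 0.24, interval 0.06 to 1.15, adjusted p = 0.137), the largest of the 10. Without WT 164 and WT 165 it was 0.23 on the log2 scale (adjusted p = 0.194), and without WT 164 alone it was 0.41. These are the 2 WT livers with the highest stellate, macrophage and cholangiocyte marker sums. Expected counts of Nr1i3 were fractional in all 8 livers.

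Nr1i2 had 77.2, 77.9, 92.2 and 93.6 CPM in E4bp4-LKO, against 78.8, 88.0, 95.4 and 105 CPM in WT. The groups overlapped, with a log2 fold change of -0.11 (SE 0.10, interval -0.33 to 0.12, adjusted p = 0.540). In FPKM, however, Nr1i2 was 28.7 to 34.6 in E4bp4-LKO and 35.9 to 40.6 in WT without overlap, and limma on log2(FPKM + 1) gave an adjusted p of 0.0525. Its log2 fold change there was -0.256, where the median of all genes was -0.11, and -0.145 less that median. The share of all genes without overlap given above is for CPM alone.

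The ratio of Nr1i2 to Nr1i3, which does not depend on the library scaling, was 0.402, 0.353, 0.436 and 0.403 in E4bp4-LKO, against 1.01, 0.736, 0.534 and 0.562 in WT livers 164 to 167. Each E4bp4-LKO liver was below each WT liver, and the ratio was near 1 in WT 164 alone. The mean ratio was 0.399 ± 0.034 in E4bp4-LKO and 0.711 ± 0.220 in WT (SD, n = 4 each), with no test since the receptors were chosen with earlier results known. Among the 6 ratios computed, this one and the Rxra share below were without overlap. No share without overlap was computed over ratios of other genes. Nr1i2 and Nr1i3 were each without overlap in FPKM, so their ratio is not a separate result.

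**Figure D3:**
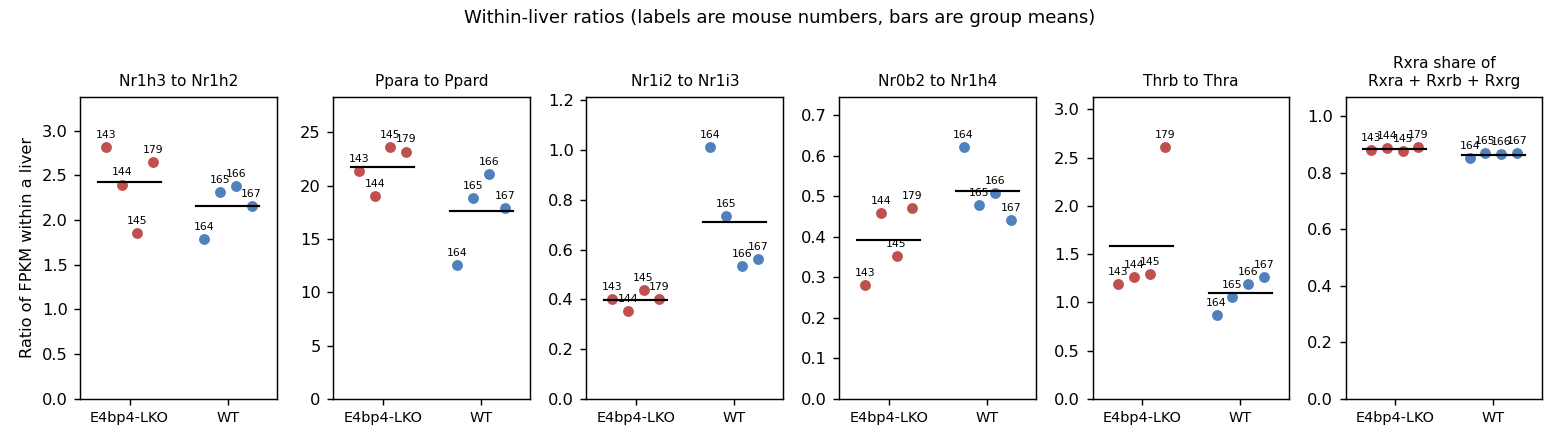
Ratios of FPKM within a liver (y axes, linear and starting at 0) for 6 pairs or shares, in the 4 E4bp4-LKO livers (left, red) and the 4 WT livers (right, blue), with group means as bars. Nr1i2 to Nr1i3 is below 0.44 in every E4bp4-LKO liver and above 0.53 in every WT liver, and the Rxra share differs without overlap by a small margin.

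PPARα (Ppara) is the fatty acid receptor that drives hepatic fat oxidation, and PPARδ (Ppard) is its broadly expressed relative. Ppara had 519, 491, 681 and 595 CPM in E4bp4-LKO, against 375, 482, 530 and 538 CPM in WT. The groups overlapped, with E4bp4-LKO 145 highest and WT 164 lowest. The log2 fold change was 0.25 (SE 0.14, interval -0.06 to 0.56, adjusted p = 0.273) and 0.10 without WT 164 and WT 165. Ppard had 10.8, 11.4, 12.8 and 11.4 CPM in E4bp4-LKO, against 13.2, 11.3, 11.1 and 13.3 CPM in WT, with a log2 fold change of -0.08 (SE 0.10, adjusted p = 0.652). The ranges overlapped. Pparg, the adipogenic paralog, averaged 34.6 ± 7.28 CPM in E4bp4-LKO and 36.6 ± 3.89 CPM in WT (adjusted p = 0.760), with a direction that turned without E4bp4-LKO 145. The ratio of Ppara to Ppard overlapped, at 19.0 to 23.6 in E4bp4-LKO and 12.5 to 21.1 in WT.

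RXRα (Rxra), the shared partner, had 554, 651, 591 and 635 CPM in E4bp4-LKO, against 444, 477, 527 and 555 CPM in WT. The groups overlapped narrowly, with E4bp4-LKO 143 below WT 167. The fold change was 1.21 (log2 0.28, SE 0.10, interval 0.06 to 0.50, adjusted p = 0.0999), and 0.17 on the log2 scale without WT 164 and WT 165. The paralogs Rxrb and Rxrg did not pass (log2 0.07, adjusted p = 0.632, and log2 -0.13, adjusted p = 0.529), and the value of Rxrb was below 0 with library totals and on FPKM. Rxra made up 0.880, 0.887, 0.876 and 0.890 of the summed FPKM of Rxra, Rxrb and Rxrg in E4bp4-LKO, against 0.851, 0.869, 0.866 and 0.869 in WT. The groups did not overlap, and the gap between the nearest livers was smaller than the distance of WT 164 from the other WT livers.

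TRβ (Thrb) is the main thyroid hormone receptor of hepatocytes. Thrb had 35.4, 38.6, 41.1 and 48.4 CPM in E4bp4-LKO, against 30.7, 34.2, 33.3 and 36.9 CPM in WT. Only E4bp4-LKO 143 lay below a WT liver, WT 167. The fold change was 1.21 (log2 0.27, SE 0.10, interval 0.06 to 0.49, adjusted p = 0.0981), with 0.18 on the log2 scale without E4bp4-LKO 179. Without WT 164 and WT 165 it was 0.22 on the log2 scale (adjusted p = 0.350). Thrb counts were fractional in all 8 livers. Its paralog Thra averaged 10.3 ± 2.27 CPM in E4bp4-LKO and 11.6 ± 1.22 CPM in WT (adjusted p = 0.525). Thra is uncertain, since it overlaps Nr1d1 on the opposite strand and no strand use is stated. The ratio of Thrb to Thra was 1.19 to 2.61 in E4bp4-LKO and 0.869 to 1.27 in WT, overlapping.

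Among 28 other nuclear receptors tested, 3 were higher in E4bp4-LKO and none lower, with a median log2 fold change of 0.12, where 10.8% of all genes tested changed. Vdr and Nr4a3 had too few counts to test, and Nr0b1 was in no table used here. Nr2f2, the orphan receptor COUP-TFII, averaged 66.2 ± 4.13 CPM in E4bp4-LKO and 49.2 ± 3.12 CPM in WT (log2 fold change 0.43, adjusted p = 0.00717). It passed in all 8 leave-one-out fits and not with library totals (adjusted p = 0.0947). Esr1, the oestrogen receptor, averaged 35.8 ± 7.83 CPM in E4bp4-LKO and 17.8 ± 4.28 CPM in WT (log2 1.01, adjusted p = 0.0146). Nr3c2, the mineralocorticoid receptor, averaged 17.6 ± 2.15 CPM in E4bp4-LKO and 13.1 ± 0.57 CPM in WT (adjusted p = 0.0236), and did not pass without E4bp4-LKO 145 or 179 or WT 165 (adjusted p up to 0.0621). Without WT 164 and WT 165, Nr2f2 alone of these passed, and Esr1 had an adjusted p of 0.0864 and Nr3c2 of 0.112. Without WT 167, 1 of the 28 was lower. Esrrg, an oestrogen-related orphan receptor, averaged 7.42 ± 0.52 CPM in E4bp4-LKO and 4.25 ± 1.53 CPM in WT and did not pass (adjusted p = 0.0546). With library totals, 1 of the 28 was higher and 1 lower, and DESeq2 called 5 higher and 1 lower.

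Of 20 coregulators, the proteins that receptors recruit, 1 was higher, 1 lower and 18 did not pass, with a median of 0.13, again beside 10.8% of all genes changed. With library totals and on FPKM, none was higher and 3 were lower. Ncoa2, a coactivator, averaged 71.2 ± 3.85 CPM in E4bp4-LKO and 57.7 ± 1.69 CPM in WT (adjusted p = 0.0177), and did not pass without E4bp4-LKO 144 (adjusted p = 0.0577) or with library totals. Ppargc1a, the coactivator PGC-1α, averaged 9.37 ± 1.31 CPM in E4bp4-LKO and 12.8 ± 1.52 CPM in WT (adjusted p = 0.0437), and of the leave-one-out fits passed in those without E4bp4-LKO 145 or WT 167, with adjusted p up to 0.124 in the others. Without E4bp4-LKO 143, 2 coregulators were higher, and without WT 164 and WT 165 none passed. Without those WT livers the log2 fold change was 0.28 for Ncoa2 and -0.33 for Ppargc1a, against 0.30 and -0.45 with all livers. The corepressor Ncor1 and the coactivator Ncoa3 had log2 fold changes of 0.21 each and did not pass (adjusted p = 0.128 and 0.133).

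Genes known as targets of these receptors were read from the same fit as 7 lists, 94 distinct genes of which 93 were tested. Of these, 11 were higher, 10 lower and 72 did not pass, 22.6% changed against 10.8% of all genes, with a median log2 fold change of 0.04. The lists overlap, and many of their genes respond to several receptors. The lists were also chosen with earlier results of these data known, and the difference between the shares was not tested.

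**Figure D4:**
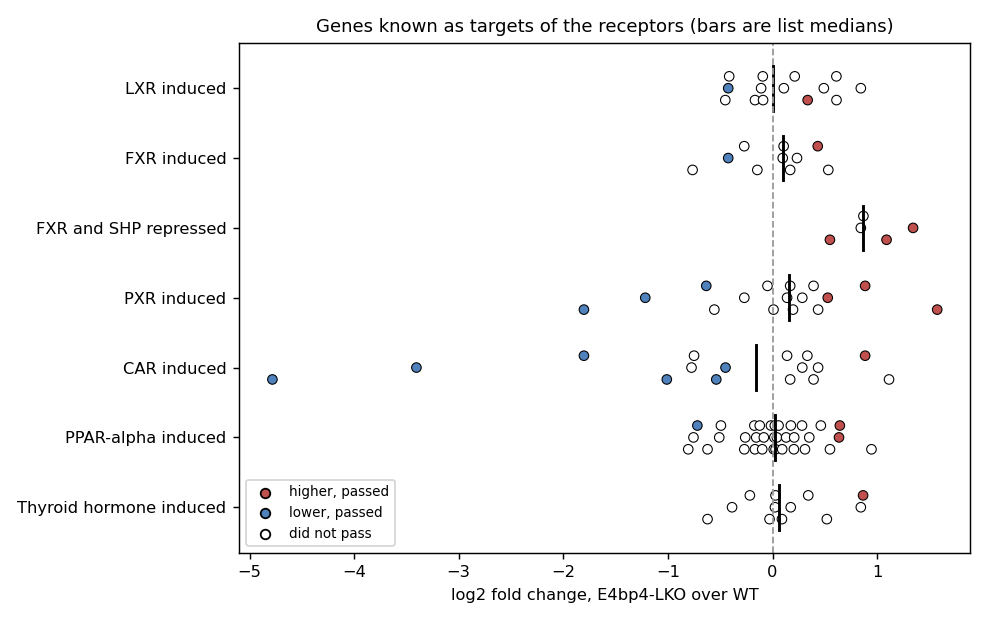
Log2 fold change, E4bp4-LKO over WT (x axis), of the tested genes of 7 lists of known receptor targets (rows); red points passed as higher, blue as lower, open points did not pass, and bars are list medians. The 5 genes listed as repressed by FXR and SHP all lie to the right of 0, and 2 of them, Cyp7a1 and Cyp8b1, did not pass. PXR and CAR targets spread widely to both sides.

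The 5 genes of bile acid synthesis and uptake listed as repressed by FXR and SHP had a median log2 fold change of 0.87, with 3 higher and none lower. That median is the value of Cyp8b1, which did not pass (SE 0.62, interval -0.58 to 2.32, adjusted p = 0.413). Cyp8b1 had 41.4, 159, 396 and 381 CPM in WT livers 164 to 167. In E4bp4-LKO livers 143, 144, 145 and 179 it had 562, 451, 399 and 371 CPM, overlapping. Slc10a1, the bile salt uptake carrier NTCP, averaged 610 ± 17.5 CPM in E4bp4-LKO and 287 ± 82.3 CPM in WT (log2 1.09, adjusted p = 0.00710), and passed in all 8 leave-one-out fits. Cyp7b1, the oxysterol 7α-hydroxylase, averaged 106 ± 26.2 CPM in E4bp4-LKO and 41.6 ± 12.3 CPM in WT (log2 1.34, adjusted p = 0.0115). Cyp27a1, a sterol 27-hydroxylase, averaged 482 ± 32.4 CPM in E4bp4-LKO and 330 ± 62.1 CPM in WT (adjusted p = 0.0254). Cyp27a1 lost its call without E4bp4-LKO 144, 145 or 179 or WT 165 (adjusted p up to 0.0797). Without WT 164 and WT 165, Slc10a1 alone passed, with Cyp7b1 at an adjusted p of 0.0722. Cyp7a1, the rate-limiting enzyme of bile acid synthesis, averaged 304 ± 58.3 CPM in E4bp4-LKO and 169 ± 88.2 CPM in WT. It did not pass (interval -0.006 to 1.69, adjusted p = 0.179), and it stands in the LXR and thyroid hormone lists too.

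Of 10 tested genes that FXR induces, 1 was higher, 1 lower and 8 did not pass (median 0.10), and Slc51a had too few counts to test. Abcb11, the bile salt export pump, averaged 450 ± 66.3 CPM in E4bp4-LKO and 334 ± 30.1 CPM in WT (log2 0.43, adjusted p = 0.0407), and did not pass with library totals or without E4bp4-LKO 144, 145 or 179 or WT 165, 166 or 167 (adjusted p up to 0.118). Slc27a5 (adjusted p = 0.0672) and Apoc2 (0.0809) did not pass. Of 14 genes that LXR induces, 1 was higher, 1 lower and 12 did not pass (median 0.01). Abca1, the cholesterol exporter, averaged 297 ± 28.1 CPM in E4bp4-LKO and 236 ± 9.73 CPM in WT (log2 0.34, adjusted p = 0.0361), and did not pass without E4bp4-LKO 144, 145 or 179 or WT 165, 166 or 167 (adjusted p up to 0.107). With library totals it did not pass either (log2 0.17, adjusted p = 0.229), and the LXR list then had none higher and 2 lower. Pltp, the phospholipid transfer protein that stands in both lists, averaged 92.4 ± 11.8 CPM in E4bp4-LKO and 124 ± 4.71 CPM in WT (log2 -0.42, adjusted p = 0.0184), and did not pass without E4bp4-LKO 144 (adjusted p = 0.0633). The lower count was 2 of the LXR list without E4bp4-LKO 143 or WT 167, and 2 of the FXR list without WT 164. Without WT 164 and WT 165, no gene of either list passed, in a fit with fewer WT livers. The log2 fold changes were then 0.39 for Abca1, 0.53 for Abcb11 and -0.45 for Pltp (adjusted p = 0.0684, 0.0631 and 0.0615). Abcg1 (log2 -0.41, adjusted p = 0.0515) and Srebf1 (log2 0.61, adjusted p = 0.0682) did not pass.

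PXR targets moved in both directions, with 3 higher, 3 lower and 10 not passing of 16 (median 0.15). Cyp3a11, the main drug-metabolizing P450 that PXR induces in mouse liver, averaged 9491 ± 1038 CPM in E4bp4-LKO and 3188 ± 330 CPM in WT (log2 1.57, SE 0.13, adjusted p = 0.000181). It kept its call in all 8 leave-one-out fits and without WT 164 and WT 165 (log2 1.71). Ces2a, a carboxylesterase, was also higher (158 ± 23.4 CPM in E4bp4-LKO and 85.8 ± 21.5 CPM in WT, adjusted p = 0.0155). Gstm3, a glutathione S-transferase, averaged 205 ± 53.3 CPM in E4bp4-LKO and 716 ± 182 CPM in WT (log2 -1.80, adjusted p = 0.00183) and passed in all 8 leave-one-out fits. Slco1a4, an organic anion carrier, averaged 16.1 ± 5.07 CPM in E4bp4-LKO and 37.3 ± 9.03 CPM in WT (adjusted p = 0.0152), and did not pass without E4bp4-LKO 144 (0.0531). Ces2a did not pass without E4bp4-LKO 144 or WT 165 (adjusted p up to 0.0515). Without E4bp4-LKO 144, 1 PXR target was higher and 1 lower, and without WT 165, 1 was higher. Without WT 164 and WT 165, 2 were higher and 2 lower. Cyp3a and Gstm genes are families of close copies, so reads may have been split between members.

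Of 16 genes listed as induced by CAR, 1 was higher, 6 lower and 9 did not pass (median -0.16). Cyp2b10, a P450 gene of both the CAR and PXR lists, did not pass (log2 0.14, SE 0.37, adjusted p = 0.846). It averaged 2.51 ± 1.25 CPM in E4bp4-LKO and 2.29 ± 0.60 CPM in WT. Whether CAR activity differed between the groups was not tested. Cyp2b13, a P450 gene, had 0, 0, 0.257 and 0.0893 CPM in E4bp4-LKO livers 143, 144, 145 and 179, against 1.42, 1.77, 2.21 and 4.41 CPM in WT livers 164 to 167 (adjusted p = 0.00472). The E4bp4-LKO livers lay at or near the floor of detection. It belongs to a family of close copies. Abcc4, an efflux transporter, averaged 9.05 ± 1.45 CPM in E4bp4-LKO and 13.1 ± 1.29 CPM in WT (adjusted p = 0.0248), and lost its call without E4bp4-LKO 144 or 145 or WT 165 (adjusted p up to 0.0761). Gstm3 and Ces2a stand in this list too. The higher count was 0 without E4bp4-LKO 144 or WT 165 and 2 without WT 167. The lower count was 2 without E4bp4-LKO 144 or WT 165, and 3 without E4bp4-LKO 145 or without WT 164 and WT 165.

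Of 34 genes that PPARα induces, 2 were higher, 1 lower and 31 did not pass (median 0.02). Ehhadh, a peroxisomal oxidation enzyme, averaged 857 ± 77.9 CPM in E4bp4-LKO and 551 ± 112 CPM in WT (log2 0.64, adjusted p = 0.0224). Cpt1b, a carnitine palmitoyltransferase of muscle type, averaged 5.22 ± 0.55 CPM in E4bp4-LKO and 8.60 ± 1.63 CPM in WT (log2 -0.72, adjusted p = 0.0164), and Acaa1b did not pass (0.0871). The higher count was 0 without E4bp4-LKO 145 or 179, without WT 165, or without WT 164 and WT 165, 1 without E4bp4-LKO 143 or 144, and 4 without WT 167. The lower count was 0 without WT 165, 2 without E4bp4-LKO 143 or 179, 4 by DESeq2 and 8 with library totals.

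Of 12 genes that thyroid hormone induces, 1 was higher and 11 did not pass (median 0.06). Thrsp, the lipogenic Spot 14 gene, averaged 808 ± 142 CPM in E4bp4-LKO and 444 ± 86.0 CPM in WT (log2 0.87, adjusted p = 0.0111), and passed in all 8 leave-one-out fits. Without E4bp4-LKO 179, 1 of the 12 was lower. Hr and Gpd2 did not pass (adjusted p = 0.0798 and 0.236).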

How the data were processed

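Whole-liver RNA-seq was available for 4 E4bp4-LKO and 4 WT mice. HISAT2 is named in the submitters' processing notes. Its version, the quantifier, the genome build and the library strand were not named (not given in the sources used here). Deposited expected counts are estimated read counts per gene, not normalized by the authors. The deposited FPKM values were normalized by the authors for transcript length and library size, per the file headers. Ratios are of deposited FPKM; the deposited lengths served only an alternative form, TMM CPM over length.

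Expected counts were rounded and fitted in R 4.3.3 with edgeR 4.0.16 (filterByExpr, minimum count 10, minimum total 15; TMM; robust quasi-likelihood test, two-sided), with Benjamini-Hochberg adjustment over 13244 genes and a threshold of 0.05. Alternatives used DESeq2 1.42.0 and limma 3.58.1 (log2 of FPKM plus a pseudocount of 1 or 0.1, genes at 1 FPKM in at least 4 livers; voom). Positive log2 fold changes mean higher in E4bp4-LKO. Genes missing from a table were read as 0. The fit was tested on simulated counts. Every pair of libraries differed beyond sampling noise (chi-square over its degrees of freedom at least 7.23). The members, gene lists and tests were chosen with earlier results of these data known. Named were the 10 receptors, Nfil3, the paralogs Rxrb, Rxrg, Thra and Pparg, and up to 4 genes of each pathway list with the smallest p. Of marker lists only counts and sums were given. Cyp8b1, Cyp2b10 and genes that could not be tested were named besides this rule. A gene that this rule names is not reported here. Genes with a profile like that of a receptor past the threshold were to be named too, and there was no such receptor. In libraries of 23805540 to 32290265 counts, 3 counts stand for 0.0929 to 0.126 CPM, covering counting error only.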

Additional observations from a re-analysis of the deposited data

Results flagged for a closer look

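In groups of 4 livers, a value stood out when its gap to the nearest other liver took up most of the group's range (Dixon's test at 95%). Of 48 groups examined, 3 held such a liver, and chance gives about 1 in 20. Nr1h4 was at 159 CPM in E4bp4-LKO 179, against 133 to 136 CPM in the other E4bp4-LKO livers. The ratio of Thrb to Thra was 2.61 in E4bp4-LKO 179, against 1.19 to 1.29 in the other E4bp4-LKO livers, and Thra there was 2.87 FPKM against 4.73 to 4.94. The Rxra share of summed Rxra, Rxrb and Rxrg was 0.851 in WT 164, against 0.866 to 0.869 in the other WT livers.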

How the results depend on the processing

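Over 17 alternatives for each of the 10 receptors, 158 of 170 values kept their direction and side of the threshold, 4 passed it and 8 turned direction. DESeq2 called 3 receptors higher and voom with sample weights 1; no alternative called one lower. Nr1h2 turned to -0.12 with library totals and to -0.13 on log2(FPKM + 1) and log2(FPKM + 0.1), and leaving out each mouse gave -0.065 to 0.12. Rxrb turned to -0.090, -0.082 and -0.088 in those 3 settings. Nr0b2 was 0.0073 without WT 164 and WT 165 and -0.20 to 0.12 without each mouse, and Pparg -0.21 to 0.039. The cause was not tested. Nfil3 kept its call in all 17 alternatives. Genes changed were 1436, 2233 by DESeq2, 387 without WT 164 and WT 165 and 506 (without E4bp4-LKO 144) to 1539 (without WT 167) without each mouse; 59.7% were lower with TMM, 85.1% with library totals (1951 genes) and 84.5% on log2(FPKM + 1) (1684 genes). No paired analysis was possible because the groups share no mouse numbers. With 4 mice a group, small differences may not be detectable.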
